A study of Mus musculus with 4 samples.

Results

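The genes described here are 10 that make, break down or carry prostaglandins: Ptgs2, Ptges, Ptges2, Ptgis, Hpgd, Ptgr1, Ptgr2, Cbr1, Slco2a1 and Abcc4. They were taken by name, and every probe set whose platform annotation gave 1 of these symbols and no other was kept, which made 22 probe sets. The probe set with the highest mean signal over the 4 arrays represented its gene and the others served as a check. All 10 genes were found among the 18193 genes of the array, and all 10 passed the filter on dim probe sets that left 11677 tested genes.

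RNA came from mice with flank tumours of 293EBNA cells, a human embryonic kidney-derived line, grown to 2000 mm3. In the VEGFD group (2 arrays) the tumour cells carried the Apex vector with VEGFD, the gene of the lymphatic growth factor VEGF-D, and in the Apex group (2 arrays) they carried the empty vector. Every mouse thus bore a tumour, and every tumour was injected with the dye Patent Blue V to show the collecting lymphatics. Endothelial cells were isolated by magnetic sorting. The titles and cell type labels name the collecting lymphatic vessel, while the extraction protocol speaks of lymph node endothelium, and which is right was not settled here. The sources used here do not give the strain, the age, the marker used for sorting or any pooling of mice. The labels name biological replicates, but nothing says that they came from separate mice, so p-values measure the spread between these arrays.

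Prostaglandins are short-lived lipid signals made from arachidonic acid. Phospholipases free the acid from membranes, the cyclooxygenases turn it into prostaglandin H, and terminal synthases convert that into prostaglandin E, prostacyclin and others. The signal ends when a transporter takes the lipid into a cell and 15-hydroxyprostaglandin dehydrogenase oxidises it. In vessels, prostacyclin and prostaglandin E act on smooth muscle tone and permeability. The comparison here is of the signals of these genes between the VEGFD and Apex arrays. The genes were chosen with earlier results of these data known.

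Pan-endothelial markers were low on 3 of the 4 arrays, against the endothelial label. The summed signal of 10 endothelial markers was 287 and 164 in VEGFD replicates 1 and 2, against 278 and 3565 in Apex replicates 1 and 2. Most of the Apex replicate 2 sum came from Emcn, at 2670. Not every marker was highest there, and Tek had 86.1 and 20.3 in VEGFD arrays and 101 and 43.9 in Apex arrays. The CD31 gene Pecam1 gave 3.25 and 2.22 in VEGFD arrays and 2.92 and 141 in Apex arrays, and the lymphatic master gene Prox1 did not exceed 11.6 on any array. Lymphatic markers were uneven: 7 of them summed to 1483 and 1966 in VEGFD arrays and 1084 and 2115 in Apex arrays, most of it from Pdpn, which encodes podoplanin, at 1237 and 1715 in VEGFD arrays and 963 and 1622 in Apex arrays. The VEGF-D receptor gene Flt4 had 161 and 145 in VEGFD arrays and 42.6 and 247 in Apex arrays. The fibroblast marker sum was 16217 and 15835 in VEGFD arrays and 17995 and 16479 in Apex arrays, over 7 markers. These similar sums hide the dermatopontin gene Dpt, with 204 and 168 in VEGFD arrays against 2725 and 2407 in Apex arrays. Of the 6 fibroblast markers tested, only Dpt had no overlap between groups. Arrays are therefore named by their labels. Apex replicate 2 stood apart in endothelial signal and VEGFD replicate 2 in smooth muscle signal, and values of the 10 genes that rest on 1 array are also given without it.

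Of the 10 prostaglandin genes, 0 passed an adjusted p of 0.05 for VEGFD against Apex (limma), and the same was true of 0% of all 11677 genes tested. At an unadjusted p under 0.05 in that limma fit there were 2 of the 10, Hpgd and Ptgis, against 5.7% of all genes. An exact permutation test of 2 arrays against 2 cannot go below p = 0.33. As a description without a test, 3 of the 10 were at least 2-fold apart with no overlap between groups, namely Hpgd with less signal in VEGFD arrays and Ptgs2 and Ptgis with more. The same held for 3.88% of all genes tested, 1.09% higher and 2.79% lower. Over all genes that count was 453, of which 127 were higher and 326 lower, and it was 431 once each array was centred on its median, with 192 higher and 239 lower. Without overlap at any size were 5 of the 10, against 38.5% of all genes. The median log2 change of the 10 genes was -0.31, with 4 higher and 6 lower, beside a median of -0.04 over all genes. It was -0.19 after centring, where the median over all genes was 0.09, and -0.15 when the probe sets of a gene were averaged, and it turned to 0.04 with VEGFD replicate 1 left out. All log2 changes here are VEGFD minus Apex of log2(signal + 16), which understates changes of dim genes, with limma's standard error (SE) and n = 2 arrays in each group.

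**Figure D1:**
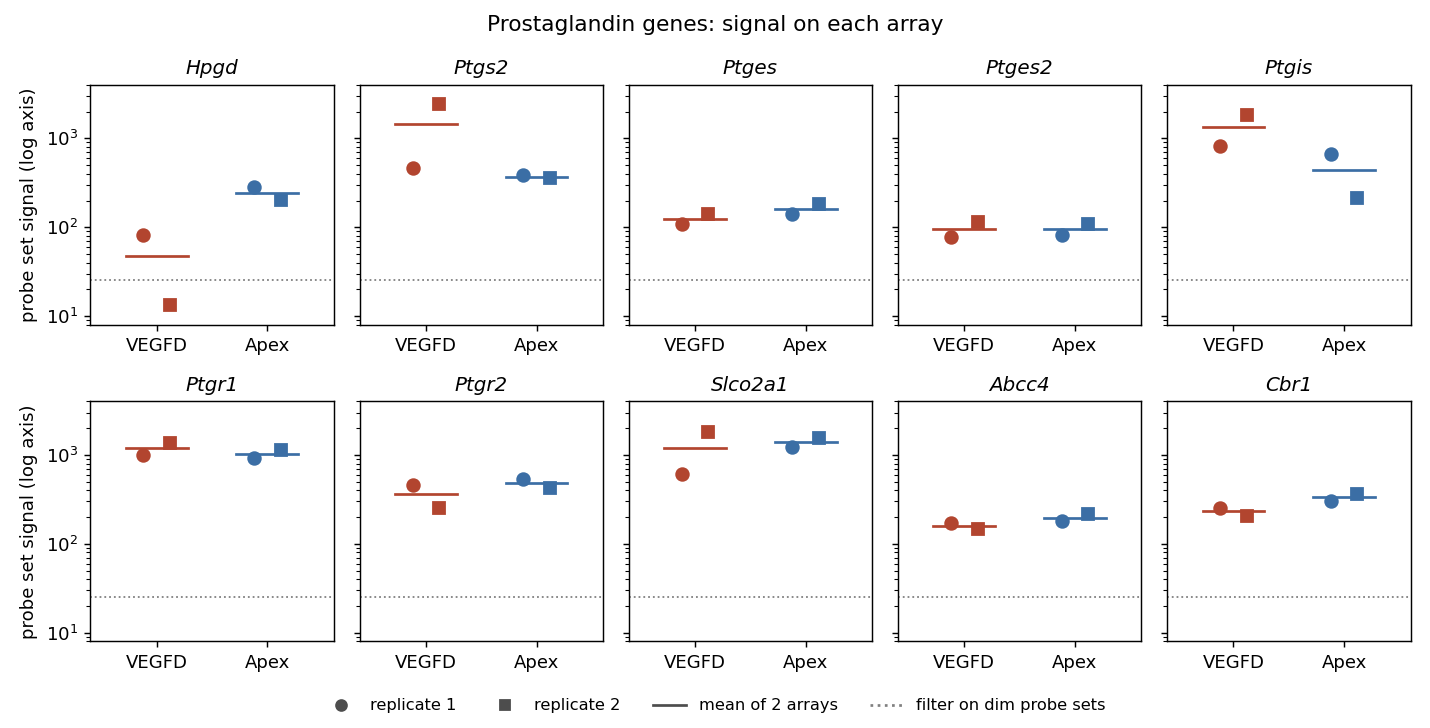
Signal of the representing probe set of each of the 10 genes on each array (log axis), with VEGFD arrays on the left and Apex arrays on the right of each panel, circles for replicate 1, squares for replicate 2 and bars for the mean of 2 arrays. Hpgd lies lower and Ptgs2 and Ptgis lie higher in both VEGFD arrays than in both Apex arrays, and the Hpgd signal of VEGFD replicate 2, 13.3, lies under the dotted line of the filter at 25.3.

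Synthesis begins with cyclooxygenase, and Ptgs2 is the gene of its inducible form, COX-2. Its signal was 466 and 2438 in VEGFD replicates 1 and 2, against 387 and 355 in Apex replicates 1 and 2. The groups did not overlap, but VEGFD replicate 1 lay close above both Apex arrays and the distance came from VEGFD replicate 2, which was 5.23 times VEGFD replicate 1. The log2 change was 1.49 ± 0.75 (SE; 95% interval -0.39 to 3.38, limma adjusted p = 0.823). A second Ptgs2 probe set gave the same picture, with 124 and 600 in VEGFD arrays against 70.8 and 62.8 in Apex arrays, a log2 change of 1.83. Left out in turn, VEGFD replicate 2 reduced the change to 0.32 and VEGFD replicate 1 brought it to 2.67, where it passed (limma adjusted p = 0.00816), as did 3.19% of all genes. In such fits the lone VEGFD array is assumed to vary like the Apex arrays.

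The start regions of Ptgs2 and of the breakdown gene Hpgd are shown because these genes had the widest distances between VEGFD replicates and opposite directions. Each line gives the 300 bases of the RefSeq promoter window, 250 before and 50 after the annotated start, in build GRCm38.p6, plus strand, 5′ to 3′, at chr1:150099781-150100080 for Ptgs2 and chr8:56294302-56294601 for Hpgd. Capitals mark matches to 4 motifs searched on both strands: the cAMP response element half-site CGTCA, the E-box CACGTG, the TATA box TATAAA and the GC box GGGCGG.
Ptgs2: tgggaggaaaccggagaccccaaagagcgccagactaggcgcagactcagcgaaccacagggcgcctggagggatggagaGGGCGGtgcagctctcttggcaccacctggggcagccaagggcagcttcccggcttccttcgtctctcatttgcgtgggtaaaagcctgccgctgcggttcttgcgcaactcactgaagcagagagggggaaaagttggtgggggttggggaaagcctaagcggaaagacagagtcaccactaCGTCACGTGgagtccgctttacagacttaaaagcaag
Hpgd: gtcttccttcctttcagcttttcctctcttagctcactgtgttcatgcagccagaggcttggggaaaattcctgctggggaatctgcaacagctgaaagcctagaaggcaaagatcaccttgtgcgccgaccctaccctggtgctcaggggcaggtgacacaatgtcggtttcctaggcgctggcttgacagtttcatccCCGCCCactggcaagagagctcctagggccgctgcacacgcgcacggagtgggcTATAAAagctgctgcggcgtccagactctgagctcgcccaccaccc
The Ptgs2 window held 1 GC box, whose first base lay 170 bases before the start, and a CGTCA half-site beginning at base 14 after the start that overlaps an E-box beginning at base 17. The Hpgd window held a TATA box from base 5 after the start and 1 GC box on the opposite strand, whose first base lay 50 before it. Among all 32851 windows of this length, CGTCA was in 20.8%, CACGTG in 7.15%, TATAAA in 13.6% and GGGCGG in 35.7%. These matches describe letters in the windows and do not show binding. Of the 10 genes, 9 had a window in the table, and Ptgis was not among them.

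The terminal synthases differed among themselves. Ptgis encodes prostacyclin synthase, and it had signals of 811 and 1854 in VEGFD replicates 1 and 2, against 673 and 216 in Apex replicates 1 and 2. The groups did not overlap, and the low value of Apex replicate 2 widened the distance: Apex replicate 1 was 3.12 times Apex replicate 2, while VEGFD replicate 2 was 2.28 times VEGFD replicate 1. The log2 change was 1.64 ± 0.64 (SE; 95% interval 0.04 to 3.24, limma adjusted p = 0.823). Leaving out Apex arrays gave 0.85 (without replicate 2) and 2.42 (without replicate 1), and leaving out VEGFD arrays gave 1.05 (without replicate 2) and 2.23 (without replicate 1).

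Ptges encodes the inducible microsomal prostaglandin E synthase. Its representing probe set had signals of 108 and 140 in VEGFD arrays, against 140 and 183 in Apex arrays, so the groups met at VEGFD replicate 2 and Apex replicate 1. The log2 change was -0.34 ± 0.28 (SE; limma adjusted p = 0.832). The other probe sets of Ptges lay further apart and did not overlap. One had 31.1 and 62.2 in VEGFD arrays against 92.8 and 110 in Apex arrays, a log2 change of -0.95, and the other had 15.98 and 11.3 in VEGFD arrays against 41.0 and 89.2 in Apex arrays, a log2 change of -1.39. In a limma fit across 20112 single-gene probe sets, both had an adjusted p of 0.733. The probe sets of this gene thus gave one direction and different sizes, and their average gave a log2 change of -0.89 (limma adjusted p = 0.823). Ptges2, which encodes a second membrane-associated prostaglandin E synthase, had signals of 76.9 and 116 in VEGFD arrays against 81.9 and 109 in Apex arrays. Each group held 1 low and 1 high array, with replicate 2 the higher in both, and the log2 change was 0.0024 ± 0.31 (SE; 95% interval -0.77 to 0.77).

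Smooth muscle signal differed between the arrays as well. Of 8 smooth muscle markers 7 were tested, 6 of them higher and 1 lower, and 0 passed (smallest limma adjusted p 0.823). Without overlap between groups were 4, beside 38.5% of all genes. These 4 were Acta2, Tagln and Myl9 among the higher and the lower marker. The lower one, the desmin gene Des, had 10.1 and 51.1 in VEGFD arrays against 85.0 and 94.0 in Apex arrays. The summed signal of the 8 markers was 7258 and 17285 in VEGFD arrays, against 4590 and 5356 in Apex arrays, with VEGFD replicate 2 highest, as for Ptgs2 and Ptgis. Acta2, the actin gene with the largest part of each sum, had 4840 and 8802 in VEGFD arrays and 3525 and 4096 in Apex arrays. Tagln, which encodes the contractile protein transgelin, had signals of 1632 and 5553 in VEGFD arrays and 454 and 746 in Apex arrays. Myh11, the smooth muscle myosin gene, did not exceed 19.2 on any array. The part of smooth muscle cells in the Ptgs2 and Ptgis values was not tested. In bulk RNA such as this, fewer cells of a type and less RNA per cell cannot be told apart.

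Breakdown begins with Hpgd, which encodes 15-hydroxyprostaglandin dehydrogenase, the enzyme that inactivates prostaglandins. Its signal was 82.9 and 13.3 in VEGFD replicates 1 and 2, against 281 and 201 in Apex replicates 1 and 2. Both VEGFD arrays lay below both Apex arrays, and VEGFD replicate 2 lay below the filter signal of 25.3. The log2 change was -2.24 ± 0.60 (SE; 95% interval -3.76 to -0.72), which ranked 55th in size among the 11677 genes, with a limma adjusted p of 0.823. The interval is for this gene alone and takes no account of the other genes tested. Because of that dim array the size depended on the pseudocount, and it was -2.79 for a pseudocount of 1 and -1.51 for 64. It depended on the probe set as well, and averaging the Hpgd probe sets gave -1.47.

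The other Hpgd probe set was dim but lay the same way, with 14.4 and 11.6 in VEGFD arrays against 33.2 and 29.1 in Apex arrays, a log2 change of -0.70. It fell below the filter and was not tested. With 1 array left out the Hpgd change ran from -3.12 to -1.36, and it passed without VEGFD replicate 1 (limma adjusted p = 0.0111). The representing probe set is of the s_at kind, whose probes can match more than 1 transcript.

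The summed signals of the epithelial, adipocyte and mast cell markers were, like Hpgd, lower in both VEGFD arrays than in both Apex arrays. The fibroblast sum lay the same way but closer together, at 16217 and 15835 in VEGFD arrays against 17995 and 16479 in Apex arrays. Of 6 tested fibroblast markers 3 were higher and 3 lower. The summed epithelial signal over 8 markers was 647 and 231 in VEGFD arrays, against 698 and 968 in Apex arrays, and 5 of 6 tested markers were lower. Its largest part was Perp, with 410 and 80.9 in VEGFD arrays against 304 and 470 in Apex arrays, which overlap. The higher marker was Krt8, with 71.6 and 46.7 in VEGFD arrays against 53.5 and 24.8 in Apex arrays. The groups overlapped for Krt8 and Krt18 as well. The summed adipocyte signal over 6 markers was 3852 and 3126 in VEGFD arrays, against 6346 and 8118 in Apex arrays, and 5 of 5 tested were lower. The mast cell sum over 6 markers was 53.4 and 57.3 in VEGFD arrays, against 80.2 and 96.3 in Apex arrays, and 1 marker, Cma1, passed the filter. Of all genes tested, 6260 of 11677 were lower, and 0 markers of the epithelial, adipocyte and mast cell lists passed (smallest limma adjusted p 0.782). The desmosome gene Dsp had 56.8 and 10.03 in VEGFD arrays against 169 and 212 in Apex arrays, and Epcam had 35.7 and 36.0 in VEGFD arrays against 91.7 and 74.8 in Apex arrays. The adiponectin gene Adipoq had 12.7 and 12.5 in VEGFD arrays against 38.3 and 145 in Apex arrays, and Fabp4 had 1098 and 1047 in VEGFD arrays against 1741 and 4073 in Apex arrays. Other defining markers were dim on every array, with Krt14 at most 14.3, Cdh1 at most 13.5 and Cpa3 at most 12.8. The part of these cells in the Hpgd value was not tested. Without Apex replicate 2, the array with the highest endothelial sum, the Hpgd change was -2.46. The part of endothelial cells in the Hpgd value was not tested either.

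The reductases act after or beside this step. Ptgr1 encodes prostaglandin reductase 1, which reduces the 15-keto products and also inactivates leukotriene B. Its signals of 1009 and 1379 in VEGFD arrays overlapped those of 924 and 1146 in Apex arrays, and the log2 change was 0.19 ± 0.26 (SE; 95% interval -0.47 to 0.85). It was -0.03 without VEGFD replicate 2.

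Ptgr2 encodes the second 15-keto-prostaglandin reductase. Its signals were 464 and 254 in VEGFD arrays, against 532 and 428 in Apex arrays, with VEGFD replicate 2 lowest and an overlap between VEGFD replicate 1 and Apex replicate 2. The log2 change was -0.45 ± 0.34 (SE; limma adjusted p = 0.830). The 6 probe sets of Ptgr2 did not share a direction: the others had log2 changes of 0.12, 0.25, -0.12, -0.25 and 0.39 in order of mean signal, the last 2 below the filter. Their average gave -0.01. The representing probe set was at -0.04 without VEGFD replicate 2 and -0.87 without VEGFD replicate 1.

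Cbr1 encodes carbonyl reductase 1, which can reduce prostaglandin E to prostaglandin F. Its signals were 254 and 208 in VEGFD arrays, against 306 and 364 in Apex arrays. The groups did not overlap and the distance was modest, a log2 change of -0.51 ± 0.25 (SE; 95% interval -1.13 to 0.12, limma adjusted p = 0.823). With 1 array left out it ran from -0.64 to -0.37.

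Transport is the step that ends or spreads the signal. Slco2a1 encodes the prostaglandin transporter, which takes prostaglandins up before they are oxidised. Its representing probe set had signals of 613 and 1802 in VEGFD replicates 1 and 2, against 1221 and 1554 in Apex replicates 1 and 2. VEGFD replicate 1 was lowest and VEGFD replicate 2 highest of all arrays, so the Apex values lay between them. The log2 change was -0.38 ± 0.52 (SE; 95% interval -1.69 to 0.93, limma adjusted p = 0.886). Its sign depended on the array left out, with -1.15 when VEGFD replicate 2 was dropped and 0.38 when VEGFD replicate 1 was.

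The other 3 probe sets of Slco2a1 did not settle its direction. The first had 145 and 257 in VEGFD arrays against 441 and 687 in Apex arrays, without overlap, a log2 change of -1.43 ± 0.37 (SE; limma adjusted p = 0.733 across probe sets). The second had 152 and 528 in VEGFD arrays against 229 and 208 in Apex arrays, which overlap, a log2 change of 0.37. The third had 98.5 and 172 in VEGFD arrays against 212 on both Apex arrays, without overlap, a log2 change of -0.64. On all 4 probe sets VEGFD replicate 2 exceeded VEGFD replicate 1. Abcc4 encodes the efflux pump MRP4, which exports prostaglandins. Its signals of 172 and 148 in VEGFD arrays lay below those of 181 and 214 in Apex arrays without overlap, a log2 change of -0.28 ± 0.25 (SE; 95% interval -0.90 to 0.34).

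**Figure D2:**
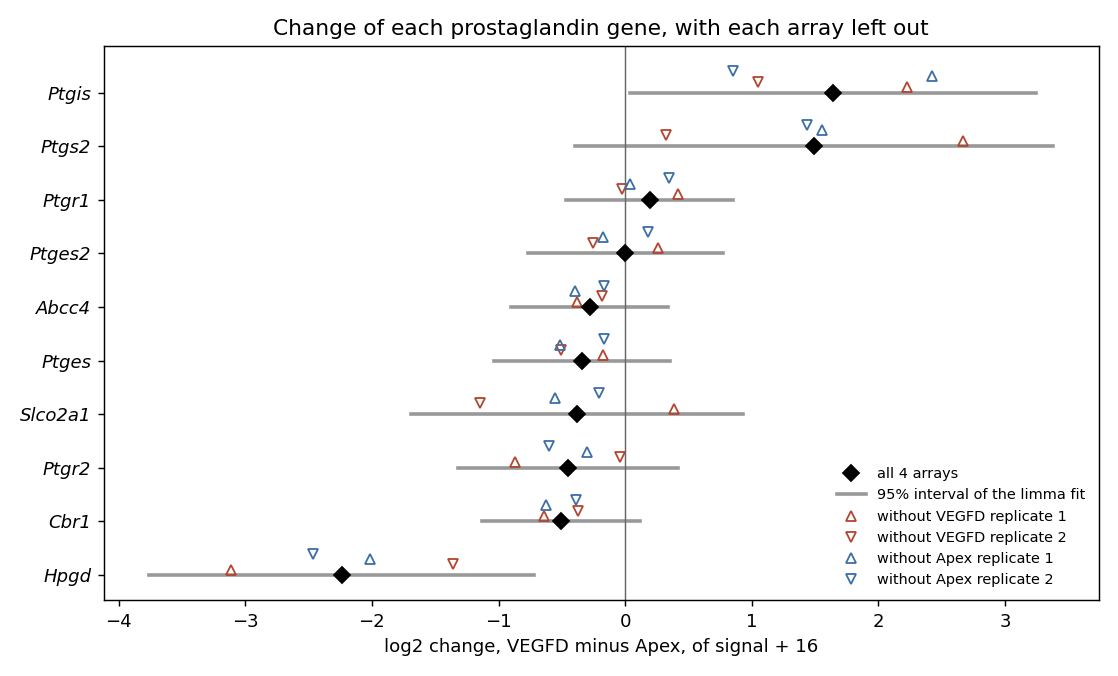
Log2 change of each gene (VEGFD minus Apex), with diamonds for all 4 arrays, bars for the 95% interval of the limma fit for that gene alone, and triangles for the value with 1 array left out. The intervals of Hpgd (-3.76 to -0.72) and Ptgis (0.04 to 3.24) do not reach 0, and the Ptgs2 value spans 0.32 to 2.67 as VEGFD arrays are left out.

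**Figure D3:**
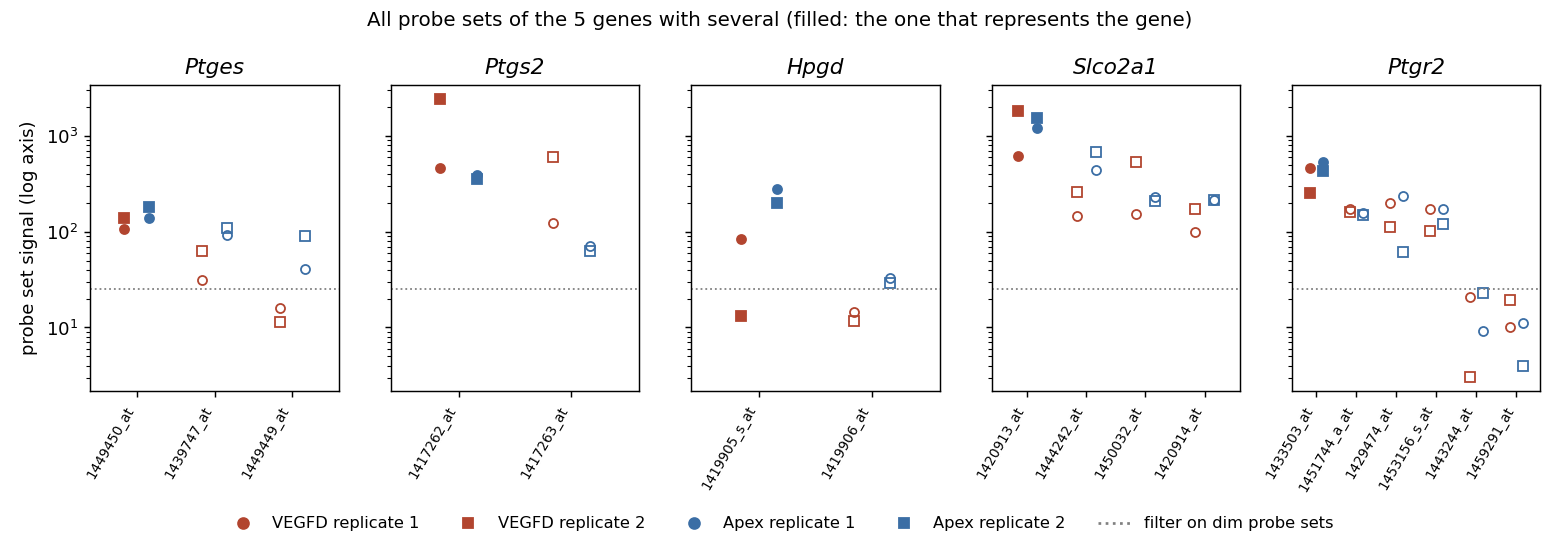
Signal of every probe set (log axis) of the 5 genes that have several, with VEGFD arrays left of Apex arrays and filled symbols for the probe set that represents the gene. All probe sets of Ptges, Ptgs2 and Hpgd lie one way, while those of Slco2a1 (log2 changes from -1.43 to 0.37) and Ptgr2 (-0.45 to 0.39) do not.

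Replicates of these genes lay further apart in the VEGFD group than in the Apex group. The median distance between the replicates of a group was 0.67 on the log2 scale in VEGFD arrays and 0.32 in Apex arrays for the 10 genes, beside 0.35 and 0.25 for all genes tested. The distance was wider in VEGFD arrays for 7 of the 10, and for 59.96% of all genes. Ptgs2, Hpgd and Slco2a1 had the widest VEGFD distances, at 2.35, -1.75 and 1.53 as VEGFD replicate 2 minus VEGFD replicate 1, against -0.12, -0.45 and 0.34 as Apex replicate 2 minus Apex replicate 1. On the representing probe sets VEGFD replicate 2 was thus the array with the highest COX-2, prostacyclin synthase and prostaglandin transporter signals and the lowest dehydrogenase signal.

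Genes with the most similar profile over the 4 arrays were found by the smallest root mean square (RMS) difference between centred log2 profiles. With 4 arrays this is a description only. The nearest to Ptgs2 was Slc20a1, a phosphate transporter gene, with signals of 446 and 2154 in VEGFD arrays and 404 and 351 in Apex arrays (RMS difference 0.087). Plaur, the urokinase receptor gene, and Thbs1, the thrombospondin-1 gene, followed at 0.11 and 0.20. Plaur had 116 and 580 in VEGFD arrays and 101 and 93.8 in Apex arrays. By this choice of genes VEGFD replicate 2 stands alone in them, as in Ptgs2.

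The nearest to Hpgd were Hand2, a transcription factor gene, Psca, a surface antigen gene, and Scara5, a scavenger receptor gene, at RMS differences of 0.21, 0.23 and 0.24. Hand2 had signals of 96.9 and 20.9 in VEGFD arrays and 336 and 341 in Apex arrays. The nearest to Ptgis were Zfp52, Rnf19b and Pmepa1 at 0.23, 0.24 and 0.26, and Pmepa1, a gene of TGF-beta signalling, had 1460 and 2284 in VEGFD arrays and 1099 and 452 in Apex arrays. Because neighbours were chosen by likeness, Ptgis shared its low Apex replicate 2 with its own, and Ptgs2 and Hpgd an extreme VEGFD replicate 2 with theirs.

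Of the other genes of the pathway, 40 in 6 lists were tested, 13 higher and 27 lower in VEGFD arrays, and 0 passed (limma adjusted p from 0.823 to 0.976). At an unadjusted p under 0.05 there was 1, Slco4a1, beside 5.7% of all genes. None of the 40 was 2-fold apart without overlap, where 3.88% of all genes were, and 19 had no overlap, beside 38.5% of all genes. Their median log2 change was -0.22, and 25 of the 40 kept their direction with each array left out in turn.

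Substrate release was the single list of the 6 with a median above 0. Of 13 tested lipase and arachidonate-handling genes 7 were higher and 6 lower, with a median of 0.38. Pla2g4a encodes cytosolic phospholipase A2, the enzyme that frees arachidonic acid for the cyclooxygenases, and it had signals of 693 and 851 in VEGFD arrays, against 564 and 284 in Apex arrays. Both VEGFD arrays lay above both Apex arrays, with a log2 change of 0.91 ± 0.37 (SE; limma adjusted p = 0.823). Leaving out Apex replicate 2 gave 0.43, and leaving out Apex replicate 1 gave 1.39. Mgll, the monoacylglycerol lipase gene, had 542 and 1220 in VEGFD arrays against 811 and 294 in Apex arrays, which overlap, and its log2 change of 0.71 became 0.0065 when Apex replicate 2 was left out.

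Other prostanoid synthases were mostly dim or unnamed here. Of 11 symbols 6 had a single-gene probe set, and 3 were tested, all lower in VEGFD arrays. Ptgs1, the gene of the constitutive cyclooxygenase, was unnamed here and was not analysed. Akr1c18, an aldo-keto reductase gene, had signals of 29.5 and 61.3 in VEGFD arrays against 72.5 and 109 in Apex arrays, without overlap, and a log2 change of -0.83 ± 0.38 (SE). Gstm2, a glutathione transferase gene, had -0.58 and 0.05 without VEGFD replicate 2. The thromboxane synthase gene Tbxas1 and the prostaglandin D synthase gene Hpgds lay below the filter.

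Among 5 tested carbonyl and 15-oxo reductases other than those above, 1 was higher and 4 lower. Dcxr, which encodes a dicarbonyl reductase, had signals of 824 and 384 in VEGFD arrays against 845 and 1110 in Apex arrays and a log2 change of -0.76 ± 0.41 (SE), which ran from -1.30 to -0.23 as VEGFD replicates 1 and 2 were left out. Vat1 had -0.40 ± 0.20. Of 6 other transporters 3 were higher and 3 lower. Slco4a1, an organic anion transporter gene, had 44.6 and 47.0 in VEGFD arrays against 18.7 and 13.3 in Apex arrays, with a log2 change of 0.95 ± 0.28 (SE; limma adjusted p = 0.823). Its replicates lay close together in both groups, and both Apex signals were below the filter signal. Slco2b1 had -0.56 ± 0.44, which was -0.03 when Apex replicate 1 was dropped and -1.09 when Apex replicate 2 was.

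The list of receptors that read these lipids also held Ptgfrn, the gene of a prostaglandin F receptor regulator, at a log2 change of -0.05. Of the 6 tested genes in this list 1 was higher and 5 lower, and 0 had groups without overlap, beside 38.5% of all genes. Tbxa2r, the thromboxane receptor gene, and Ptgfr, the prostaglandin F receptor gene, had the largest log2 changes, -0.56 and -0.55. They were 0.44 without VEGFD replicate 2 for Tbxa2r and 0.21 without Apex replicate 2 for Ptgfr. The neighbouring list of leukotriene and lipoxygenase genes also held the epoxide hydrolase genes Ephx1 and Ephx2, both lower in VEGFD arrays. Of the 7 tested genes in that list 1 was higher and 6 lower. Ltc4s, the leukotriene C synthase gene, had 26.9 and 15.7 in VEGFD arrays against 68.5 and 28.3 in Apex arrays and a log2 change of -0.73 ± 0.41 (SE), with a range of -1.20 to -0.27 as Apex replicates 2 and 1 were left out. Ephx1, an epoxide hydrolase gene, had 3550 and 2070 in VEGFD arrays against 3768 and 4398 in Apex arrays and a log2 change of -0.58 ± 0.31 (SE), with a range of -0.97 to -0.20 as VEGFD replicates 1 and 2 were left out.

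**Figure D4:**
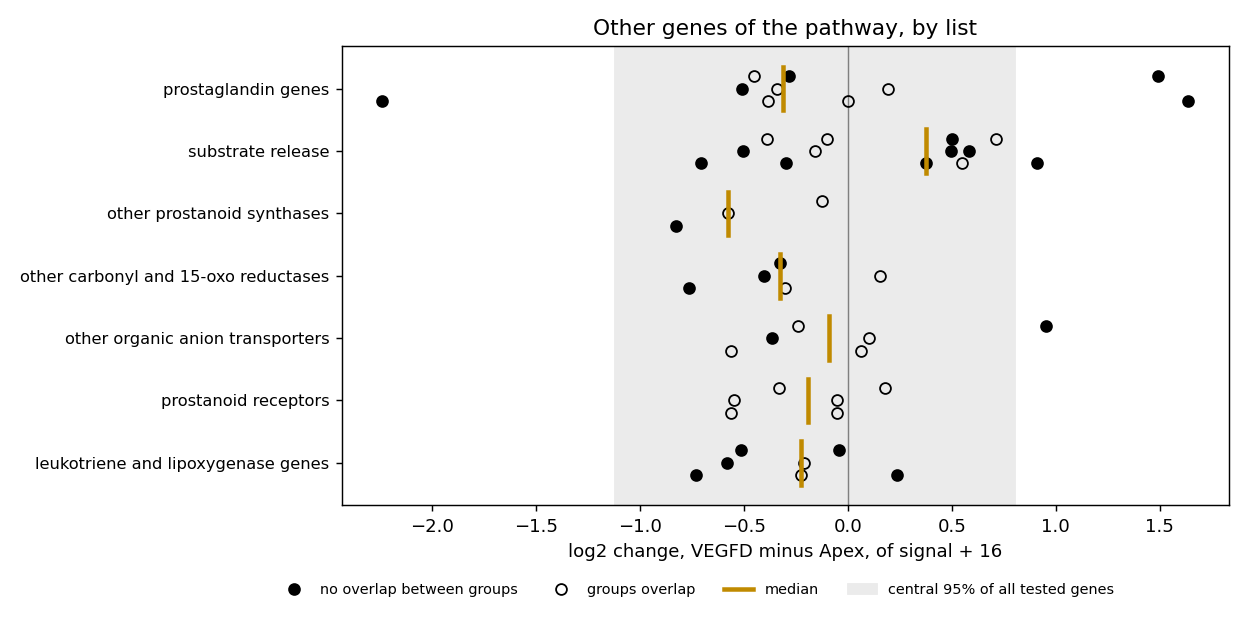
Log2 change (VEGFD minus Apex) of the 10 prostaglandin genes and of the tested genes in 6 lists of the same pathway, filled where the groups do not overlap, with gold bars for list medians and a grey band for the central 95% of all tested genes. Hpgd, Ptgs2 and Ptgis lie outside the band (-1.12 to 0.80), as do Pla2g4a at 0.91 and Slco4a1 at 0.95.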

How the data were processed

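The authors deposited 1 linear intensity per probe set and array, from 0.0265 to 15171. The sources used here give neither the algorithm nor detection calls nor the build. In the deposited intensity values each array had a mean of 150 after trimming 2% of probe sets at each end. Of 45101 probe sets, 64 were controls, 34945 had 1 gene symbol, 932 had several and 9160 were unnamed here.

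Values were used as log2(signal + 16). The probe set of highest mean signal stood for its gene, and a gene was kept where that probe set's mean log2 value reached the median over the non-control probe sets, 5.37, a signal of 25.3. The comparison of VEGFD with Apex used limma 3.58.1 under R 4.3.3 (lmFit, eBayes with an intensity trend). Tests were two-sided, and p-values were adjusted by Benjamini-Hochberg over 11677 genes with a threshold of 0.05. The procedure was tested on simulated data. The number of arrays limits the precision. Genes named are the 10 members, the 2 largest changes of each pathway list where none passed, and the 3 nearest profiles of Hpgd, Ptgs2 and Ptgis. Other genes named (marker genes, and Ptgs1, Tbxas1 and Hpgds) were chosen after their values were seen. Members and lists were chosen with earlier results of these data known. Alternatives covered pseudocount, filter, scaling, probe set choice, replicate block, variance trend and each array left out. Each single probe set was an alternative added after seeing the data.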

Additional observations from a re-analysis of the deposited data

How the results depend on the processing

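Under 10 alternatives on 4 arrays, all 100 values of the 10 genes kept their direction, and the 98 that had a test stayed short of the threshold. The filter, replicate block and variance trend settings cannot alter a log2 change here. Choosing the probe set by highest mean log2 gave the main values again. Direction could thus move only under the pseudocount, scaling and averaging settings. Centring arrays on their medians moved the median over all genes to 0.09, against -0.04 as deposited, and Ptges was -0.22 and Cbr1 -0.39 there. With the 75th percentile as filter 8 of the 10 genes were tested, without Hpgd and Ptges2. With the replicate number as a block 6 of all genes passed, and 0 of the 10, with a smallest adjusted p of 0.196, that of Hpgd (limma). Deviations of same-numbered arrays correlated at 0.20 over genes, the 2 pairs giving the same value by construction, and the labels do not say that numbers pair arrays. With 1 array left out, the genes passing ran from 0 to 372, those of the 10 from 0 to 2, those 2-fold apart without overlap from 2 to 3 and the median of the 10 from -0.348 to 0.0418. The 372 and the 2 were without VEGFD replicate 1, and 4 genes passed without VEGFD replicate 2. Without Apex replicate 2 the genes 2-fold apart were Hpgd and Ptgs2. The 3 genes 2-fold apart without VEGFD replicate 2 were Hpgd, Ptgis and Slco2a1. Over all genes tested, the share 2-fold apart and free of overlap moved from 3.88% on 4 arrays. Dropping VEGFD replicate 1 brought it to 11.5% and dropping VEGFD replicate 2 to 4.92%. For the Apex group it became 8.26% once replicate 1 was dropped, and 3.79% once replicate 2 was. A group of 1 array has less room to overlap, so the steady member count does not measure stability. Changes of sign came in 4 of the 40 log2 changes of the 10 genes with 1 array left out. Slco2a1 ran from -1.15 to 0.38, Ptges2 from -0.25 to 0.26 and Ptgr1 from -0.029 to 0.42. The turned values were those of Slco2a1 without VEGFD replicate 1, of Ptges2 and Ptgr1 without VEGFD replicate 2 and of Ptges2 without Apex replicate 1 (-0.17). Of 12 probe sets taken alone 4 had the opposite sign, at 0.12, 0.25 and 0.39 for Ptgr2 and 0.37 for Slco2a1. The cause was not tested. No detection calls were used, so signals near or below 25.3 have no stated limit against background.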
